A study of Mus musculus with 4 samples.

Results

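The genes described encode structural proteins of the cornified cell envelope and its attachments, namely loricrin (Lor), filaggrin (Flg), filaggrin-2 (Flg2), involucrin (Ivl), hornerin (Hrnr), repetin (Rptn), trichohyalin-like 1 (Tchhl1), cornifelin (Cnfn), keratinocyte proline-rich protein (Kprp) and corneodesmosin (Cdsn). Members were taken by symbol, as probe sets that the array's annotation ties to that single gene. Of the 10 listed genes, 9 had such a probe set, 1 each, out of 19938 named genes and 35556 probe sets in all. Flg had none, so its expression is not analysed here, and it appears only among the promoter windows. Probe sets with several symbols were not used. The epidermis came from 2 mouse lines with a transgene behind the K14 promoter, which is active in basal keratinocytes. The noggin line overexpresses noggin, a secreted antagonist that binds bone morphogenetic proteins (BMPs), and the BMP4 line overexpresses the ligand BMP4. Strips of epidermis, 8 to 10 from each animal, were captured by laser from hairless hindpaw skin, and each array received a pool of RNA from 3 animals. This gave 2 noggin arrays and 2 BMP4 arrays, from 6 animals of each line. Strain, age and the extent of the transgene within each transcript are not given in the sources used here. All 4 arrays are transgenic, so each difference below is between the lines and not from non-transgenic skin. Levels are log2 RMA values, the authors' normalized and summarised probe signal, and adjusted p-values come from limma with Benjamini-Hochberg adjustment over all probe sets.

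The cornified envelope is the protein shell that replaces the plasma membrane of a keratinocyte as it leaves the granular layer. Transglutaminases cross-link its precursors beneath the membrane, with involucrin among the early ones and loricrin making up much of the finished shell. Filaggrin, filaggrin-2, hornerin, repetin and trichohyalin-like proteins belong to the S100-fused family, which joins a calcium-binding S100-like end to long repeats, and corneodesmosin holds the finished cells together from outside. In mammals most of these genes lie side by side in the epidermal differentiation complex.

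The promoters show what the genes share at their start. RefSeq windows of 300 bases, 250 before and 50 after each annotated start (build GRCm38.p6), were found for 9 of the 10 genes. The exception was Kprp. Cdsn had 2 windows. Of the 10 genes, 8 lie on chromosome 3, while Cnfn lies on chromosome 7 and Cdsn on chromosome 17. The windows of the pair of genes with the widest differences between the lines (Flg2 and Rptn), of the most typical envelope protein (Lor), of a gene with almost no difference (Ivl) and of a gene outside chromosome 3 (Cnfn) are printed 5′ to 3′ in the direction of transcription. Capitals mark TGANTCA, a pattern looser than the AP-1 consensus (TGAGTCA or TGACTCA), and the TATA box letters TATAAA.
Flg2, chr3:93197023-93197322, plus strand: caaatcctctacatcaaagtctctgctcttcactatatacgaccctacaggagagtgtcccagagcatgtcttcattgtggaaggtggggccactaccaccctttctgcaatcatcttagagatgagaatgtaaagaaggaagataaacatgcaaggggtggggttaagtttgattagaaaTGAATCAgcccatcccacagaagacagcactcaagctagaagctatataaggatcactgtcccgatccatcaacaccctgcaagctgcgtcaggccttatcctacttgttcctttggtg
Rptn, chr3:93393449-93393748, plus strand: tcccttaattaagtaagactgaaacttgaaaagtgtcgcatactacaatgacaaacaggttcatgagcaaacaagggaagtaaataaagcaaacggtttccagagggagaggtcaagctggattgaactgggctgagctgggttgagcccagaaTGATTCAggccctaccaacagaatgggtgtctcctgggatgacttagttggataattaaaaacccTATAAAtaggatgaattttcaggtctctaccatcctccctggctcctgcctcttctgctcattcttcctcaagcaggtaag
Lor, chr3:92083093-92083392, minus strand: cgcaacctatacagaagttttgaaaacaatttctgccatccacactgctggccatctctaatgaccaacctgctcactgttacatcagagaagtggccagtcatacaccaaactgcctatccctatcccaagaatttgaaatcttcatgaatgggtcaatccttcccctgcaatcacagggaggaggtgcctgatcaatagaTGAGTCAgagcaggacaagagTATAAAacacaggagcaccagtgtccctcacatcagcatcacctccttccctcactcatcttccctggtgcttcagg
Ivl, chr3:92573686-92573985, minus strand: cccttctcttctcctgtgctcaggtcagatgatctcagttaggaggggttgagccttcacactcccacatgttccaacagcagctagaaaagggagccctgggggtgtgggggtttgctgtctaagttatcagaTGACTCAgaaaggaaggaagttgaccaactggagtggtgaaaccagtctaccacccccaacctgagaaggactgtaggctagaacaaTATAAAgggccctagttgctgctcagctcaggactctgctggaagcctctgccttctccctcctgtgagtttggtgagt
Cnfn, chr7:25369675-25369974, minus strand: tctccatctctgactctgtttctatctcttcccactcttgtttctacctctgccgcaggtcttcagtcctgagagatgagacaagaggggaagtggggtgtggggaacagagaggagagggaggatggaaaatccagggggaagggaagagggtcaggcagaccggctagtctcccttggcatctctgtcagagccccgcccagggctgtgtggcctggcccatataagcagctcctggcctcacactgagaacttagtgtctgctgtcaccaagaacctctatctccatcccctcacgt

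Both strands were searched, and the marked runs do not overlap each other. TGANTCA was present for 6 of the 9 genes with a window, against 7.81% of all 32851 windows. These 6 were Lor, Ivl, Flg, Flg2, Rptn and Tchhl1, all on chromosome 3. Of them Flg, Flg2, Rptn and Tchhl1 are S100-fused genes. The Flg and Flg2 windows shared a run of 12 bases just after the match. Genes of this family may therefore not be separate counts, for this pattern or the others below. Only Lor and Ivl held the AP-1 consensus letters (TGAGTCA and TGACTCA). Flg, Flg2 and Tchhl1 held TGAATCA and Rptn held TGATTCA, and the share of all windows is for the looser pattern. Counting the base before the annotated start as position -1, TGANTCA began at -48 in Lor, -69 in Flg2, -96 in Rptn and -116 in Ivl. TATAAA was present for 5 of the 9 genes (Lor, Ivl, Flg, Hrnr and Rptn), against 13.6% of windows. The letters of the KLF motif, CACCC, were present for 8 of the 9 genes, against 57.5% of windows. Rptn and Ivl both carry TGANTCA and TATAAA, and their values between the lines differed in size, as given below. A match describes letters in the window and not a used site, and its absence says nothing about the factor.

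The comparison of noggin with BMP4 epidermis asks how these envelope genes stand when the BMP antagonist rather than the ligand is overexpressed. For 7 of the 9 genes the noggin mean exceeded the BMP4 mean, with Flg2, Rptn and Cnfn the farthest apart. For the other 2, Cdsn and Ivl, it was the lower one, and Ivl was within 0.034 of level. Lor, Hrnr and Kprp differed by at most 0.11 on the log2 scale. None of the 9 passed an adjusted p of 0.05 in limma, where 0 of 35556 probe sets passed (0%). At an unadjusted p below 0.05 there were 2 of the 9, Rptn and Cdsn, against 5.61% of all probe sets (1994 probe sets) and 854 of the 19938 named genes. The median difference, noggin minus BMP4, was 0.11 for the 9 genes and -0.0064 for all named genes. The noggin mean exceeded the BMP4 mean for 9538 of the 19938 named genes (47.8%). The noggin pair of arrays was wholly above the BMP4 pair for 5 of the 9 genes, against 15.7% of named genes, and wholly below for 1, against 17.9%. With 2 arrays against 2, the smallest two-sided p that an exact permutation test of 1 gene can give is 0.333. In these captured strips, fewer cells of a type and less RNA per cell cannot be told apart.

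**Figure D1:**
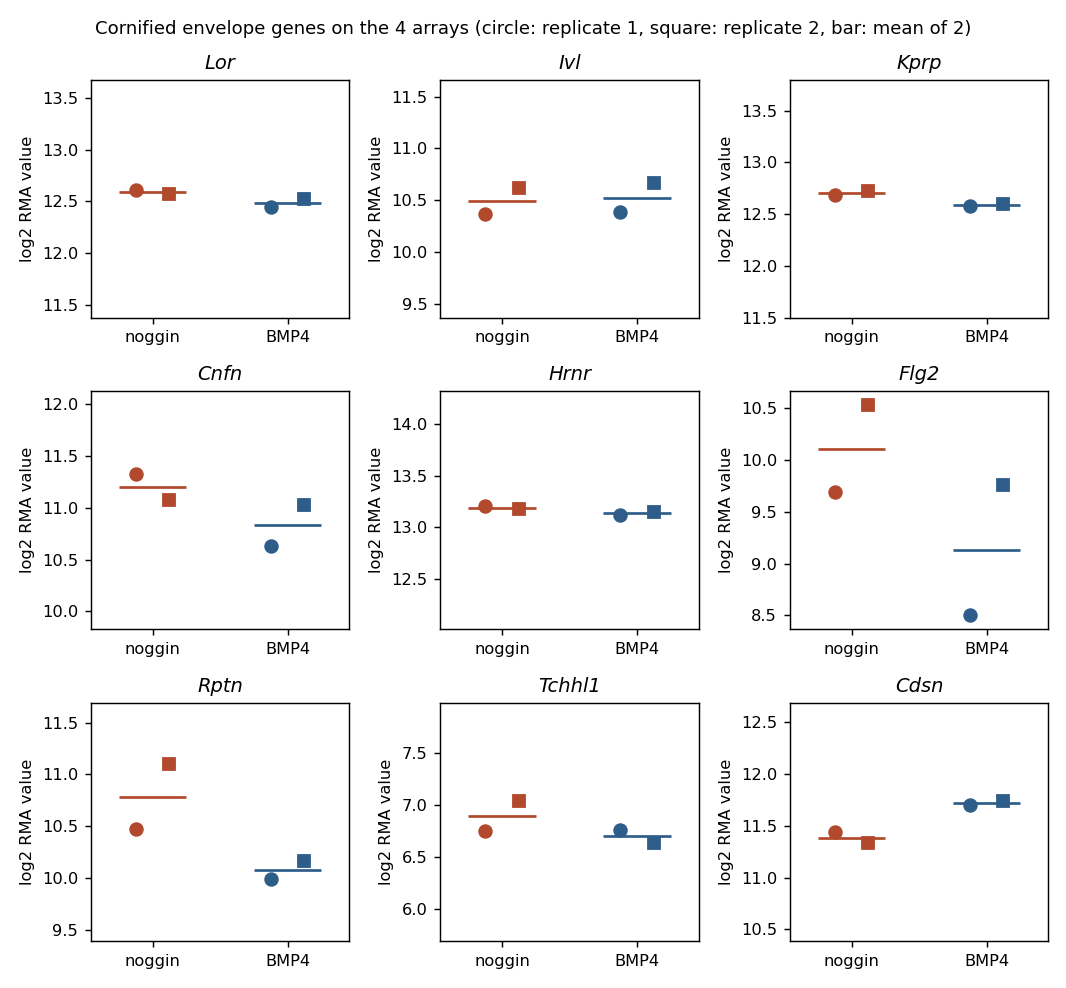
Log2 RMA value of each of the 9 measured genes on each array, noggin at the left and BMP4 at the right of each panel. Circles are replicate 1, squares are replicate 2 and bars are means of 2 arrays, and every panel spans the same number of log2 units on its vertical axis. The arrays of Lor, Kprp and Hrnr nearly coincide, Flg2 spreads over 2.03 log2 units with overlapping groups, and Rptn and Cdsn separate in opposite directions.

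Among the precursors without an S100-like end, loricrin was almost level. Lor had log2 values of 12.61 and 12.57 on the noggin arrays, against 12.45 and 12.53 on the BMP4 arrays. Both noggin arrays were the higher ones, by a gap of only 0.041. The difference was 0.10, or 1.07-fold, and its 95% interval ran from -0.15 to 0.35 (limma, adjusted p = 0.957). Without BMP4 replicate 1 it was 0.06.

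Kprp, a proline-rich protein of differentiating keratinocytes, had log2 values of 12.69 and 12.72 in noggin, against 12.58 and 12.60 in BMP4. Both noggin arrays again lay just above both BMP4 arrays, and the replicates of a line agreed to an SD of 0.024 in noggin and 0.015 in BMP4 (n = 2 each). The interval of the difference of 0.11 reached from -0.12 to 0.35 (limma, adjusted p = 0.950).

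Cnfn, a small cysteine-rich envelope protein, had log2 values of 11.32 and 11.08 in noggin and of 10.63 and 11.03 in BMP4. The low value was that of BMP4 replicate 1, and the other BMP4 array lay 0.048 below the nearer noggin array. The difference was 0.37, or 1.29-fold, its interval running from -0.14 to 0.88 (limma, adjusted p = 0.931), and 0.17 without BMP4 replicate 1 but 0.57 without BMP4 replicate 2.

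Ivl had log2 values of 10.36 and 10.62 in noggin and of 10.38 and 10.67 in BMP4. The values fell in 2 pairs by replicate number and not by line, with replicate 2 the higher array in both lines. The difference was -0.03, its interval running from -0.47 to 0.40 (limma, adjusted p = 0.999). Its sign turned on leaving out an array, to 0.09 without noggin replicate 1 and 0.11 without BMP4 replicate 2.

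Among the 9 genes, 4 are S100-fused, and the noggin mean was the higher one for all 4. Their differences ran from 0.06 to 0.98 around a median of 0.45. Leaving out noggin replicate 2 gave a median of 0.23, and leaving out noggin replicate 1 gave 0.68. Outside the 9, the S100-fused genes Tchh and Crnn had differences of -0.20 and 0.315, so the family as a whole did not share 1 direction. Flg2, which like filaggrin is broken down in the outer epidermis, had log2 values of 9.69 and 10.53 in noggin, against 8.50 and 9.76 in BMP4. The groups overlapped, since BMP4 replicate 2 lay above noggin replicate 1, and the range of 2.03 over the arrays was the widest of the 9 genes. The means were 10.11 ± 0.59 in noggin and 9.13 ± 0.89 in BMP4 (SD, n = 2 each), a difference of 0.98 or 1.98-fold. Its interval ran from -0.49 to 2.45 (limma, adjusted p = 0.936). The difference was 0.35 without BMP4 replicate 1, 0.57 without noggin replicate 2 and 1.61 without BMP4 replicate 2.

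Rptn, a transglutaminase substrate of the granular layer, had log2 values of 10.47 and 11.10 in noggin, against 9.99 and 10.16 in BMP4. Both noggin arrays were above both BMP4 arrays, by a gap of 0.31, and noggin replicate 2 was the highest. The means were 10.78 ± 0.44 in noggin and 10.07 ± 0.12 in BMP4 (SD, n = 2 each). The difference was 0.71 or 1.63-fold, its interval running from 0.04 to 1.38 (limma, unadjusted p = 0.042, adjusted p = 0.874). It was 0.39 without noggin replicate 2.

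Hrnr had log2 values of 13.21 and 13.18 in noggin, against 13.12 and 13.15 in BMP4. The 4 arrays lay within 0.083 of each other, the narrowest range of the 9 genes, and close to the highest values on these arrays, 13.82 to 13.92. The difference was 0.06, its interval running from -0.18 to 0.29 (limma, adjusted p = 0.984). Whether this probe set could still register a rise so near the top of the scale was not tested.

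Tchhl1, whose product resembles the hair and tongue protein trichohyalin, had log2 values of 6.75 and 7.04 in noggin and of 6.76 and 6.64 in BMP4. Only noggin replicate 2 stood above the other arrays, and the groups overlapped. The difference was 0.20, its interval running from -0.18 to 0.58 (limma, adjusted p = 0.946), and 0.05 without noggin replicate 2 but 0.34 without noggin replicate 1. Array medians were 6.04 to 6.06 and detection above background is unknown.

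Cdsn, whose product corneodesmosin is glued to the outside of the finished cells, was the 1 gene with the noggin arrays wholly below the BMP4 arrays. It had log2 values of 11.44 and 11.34 in noggin, against 11.70 and 11.74 in BMP4, with a gap of 0.26 between the groups. The means were 11.39 ± 0.074 in noggin and 11.72 ± 0.031 in BMP4 (SD, n = 2 each). The difference was -0.33, which is a BMP4 level 1.26 times that of noggin. The interval ran from -0.59 to -0.08 (limma, unadjusted p = 0.022, adjusted p = 0.848). It lay between -0.39 and -0.28 on leaving out each array in turn.

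**Figure D2:**
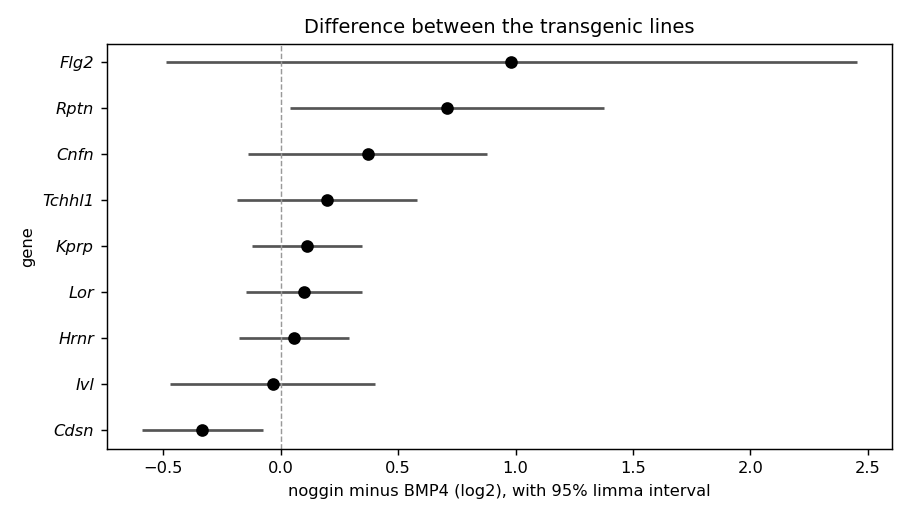
Difference of group means, noggin minus BMP4, for each gene on the log2 scale (points) with its 95% limma interval (lines), 2 arrays a group. The intervals of Rptn and Cdsn lie on opposite sides of 0, at 0.04 to 1.38 and -0.59 to -0.08, and the other 7 include 0.

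The genes also differed in which array was extreme. BMP4 replicate 1 was the lowest array for 6 of the 9 genes and the highest for 0, whereas over all named genes it was the lowest for 25.9% and the highest for 24.2%. Without that array the noggin mean exceeded the BMP4 mean for 7 of the 9 genes, and the median difference was 0.10. Over the 4 analyses that each left out 1 array, between 7 and 8 of the 9 were higher in noggin, with medians from 0.10 to 0.14.

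Likeness of pattern was measured as the root mean square distance between gene-centred log2 values over the 4 arrays, among genes with a mean log2 value of at least 8. For Flg2, the gene with the widest range, the 4 nearest of 4429 genes were Dpt, which encodes the matrix protein dermatopontin, at 0.082, Ctss, the protease cathepsin S, at 0.15, Lyz2, a lysozyme of myeloid cells, at 0.15, and Casp4, an inflammatory caspase, at 0.16. Of the other genes described, Rptn was the nearest to Flg2, at 0.41. The nearest of 4429 genes were found by a search, so they cannot be compared with a gene named beforehand. Dpt had log2 values of 8.68 and 9.31 in noggin, against 7.29 and 8.59 in BMP4, with noggin replicate 2 the highest and BMP4 replicate 1 the lowest array, as in Flg2. The arrays between these stood in the opposite order in the pair of genes.

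The median profile of the 9 genes was nearly flat, at 0.04 and 0.07 in noggin and -0.09 and -0.0099 in BMP4 relative to each gene's mean. The 5 genes nearest to it lay at distances of 0.0044 to 0.011. They were Scamp1, Sbsn, Tmem30b, Pnisr and Clip4, of which Sbsn encodes suprabasin, a secreted protein of suprabasal keratinocytes. These neighbours are given as a description.

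Genes were taken by symbol and not by position, but most of them are known to lie side by side. Position is therefore not independent of the choice. Of the genes measured between Lor and Tchhl1 on chromosome 3, 39 are not among the genes described above. The noggin mean was higher for 32 of these 39 and lower for 7, and the median difference was 0.16. The noggin pair of arrays was wholly above the BMP4 pair for 17 of the 39 and wholly below for 1, against the 15.7% and 17.9% of all named genes. The median was 0.09, with 29 genes higher, without BMP4 replicate 1, and 0.07, with 27 higher, without noggin replicate 1. Most of these neighbours are Sprr and Lce genes, families of close copies whose probes can bind several members, so they are not separate counts.

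**Figure D3:**
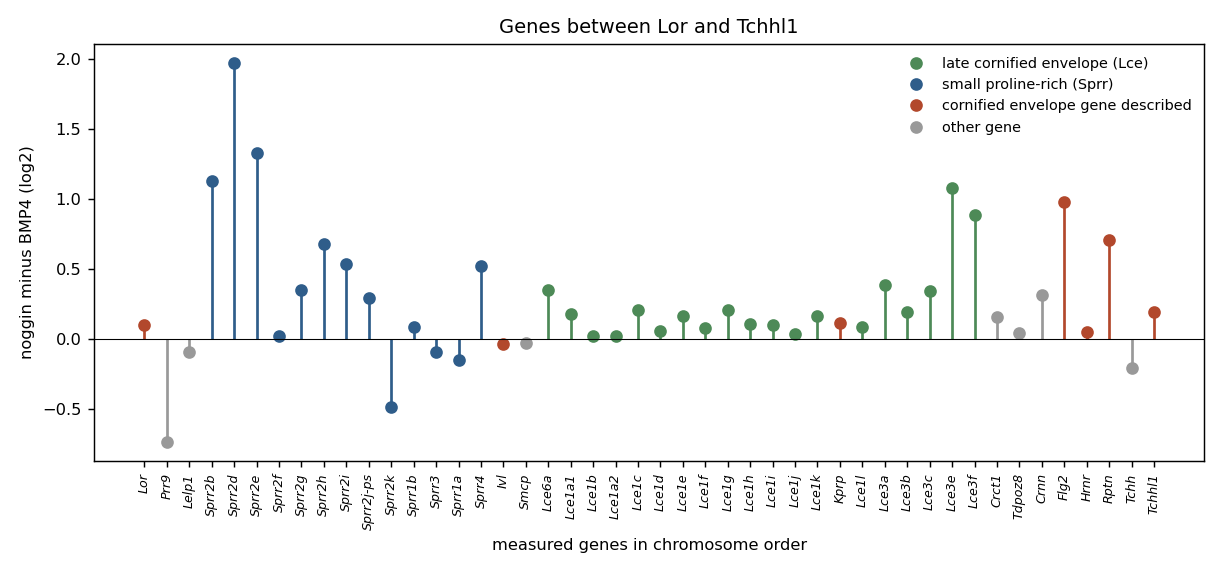
Difference of group means, noggin minus BMP4 on the log2 scale, of the 46 measured genes from Lor to Tchhl1 in chromosome order, with equal spacing. Points are single genes and colours mark the gene family. Of the 46 genes 38 lie above 0, the tallest being Sprr2d at 1.98 (0.92 without BMP4 replicate 1). Of the genes described in the text, Lor stands at the left end, Ivl and Kprp within the row, and Flg2, Hrnr, Rptn and Tchhl1 close together at the right end.

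The related envelope genes were counted by list. Of 39 listed small proline-rich and late envelope genes, which encode short cross-linked precursors, 34 were measured. All 34 are among the neighbours between Lor and Tchhl1 counted above, so this list and that count are not separate results. The noggin mean was higher for 30 of the 34, and the median difference was 0.17. None passed the adjusted threshold in limma, and 5 of the 34 had an unadjusted p below 0.05, against 854 of the 19938 named genes. Sprr2b had log2 values of 8.12 and 7.83 in noggin, against 7.08 and 6.60 in BMP4, and Lce3e had 9.54 and 9.41 in noggin, against 7.89 and 8.89 in BMP4. The groups did not overlap for either gene, and noggin was the higher. The Lce3e difference was 1.08, and 0.58 without BMP4 replicate 1. Sprr2k went the other way, at 6.71 and 6.61 in noggin and 7.27 and 7.01 in BMP4. The list's median was 0.11 without BMP4 replicate 1 and 0.08 without noggin replicate 1.

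Of 25 genes for cross-linking the envelope, processing filaggrin or building the lipid layer around it, mostly enzymes, 18 were higher by their means in noggin, and the median was 0.04. Limma called 0, and 0 had an unadjusted p below 0.05. Without noggin replicate 1 the median was -0.0092, with 12 of 25 higher, without BMP4 replicate 1 it was 0.0061, and without either replicate 2 array it was at least 0.081. The 3 with the smallest p were Klk7, a protease that cleaves corneodesmosin, at a difference of 0.37, Blmh, which finishes the breakdown of filaggrin, at 0.31, and Casp14, a filaggrin-processing caspase, at 0.44. Klk7 had log2 values of 11.64 and 11.60 in noggin, against 11.06 and 11.45 in BMP4. Without BMP4 replicate 1 these differences were 0.17, 0.11 and 0.16. In all 3 the noggin arrays were wholly above the BMP4 arrays, as for 7 of the 25 genes and 15.7% of all named genes, and the limma adjusted p-values were 0.907 to 0.936.

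Envelope scaffold and corneodesmosome genes were divided, with 9 of 17 higher and 8 lower in noggin. Their median was 0.02, which ranged from -0.03 to 0.02 without 1 array. Dsg3 and Dsc2, desmosomal cadherins of the lower layers, had differences of -0.37 and -0.53 (-0.23 and -0.19 without BMP4 replicate 1), and the protease inhibitor Csta1 had 0.20. Of 18 transcription factors linked to the granular layer, 11 were higher in noggin, with a median of 0.07 that ranged from 0.03 to 0.05 without 1 array. Hopx, a homeodomain protein of differentiating keratinocytes, had log2 values of 9.07 and 8.99 in noggin, against 8.58 and 8.73 in BMP4 (limma, unadjusted p = 0.022, adjusted p = 0.848). In neither list did limma call a gene over all probe sets. At an unadjusted p below 0.05 there were 0 of the 17 and 1 of the 18.

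**Figure D4:**
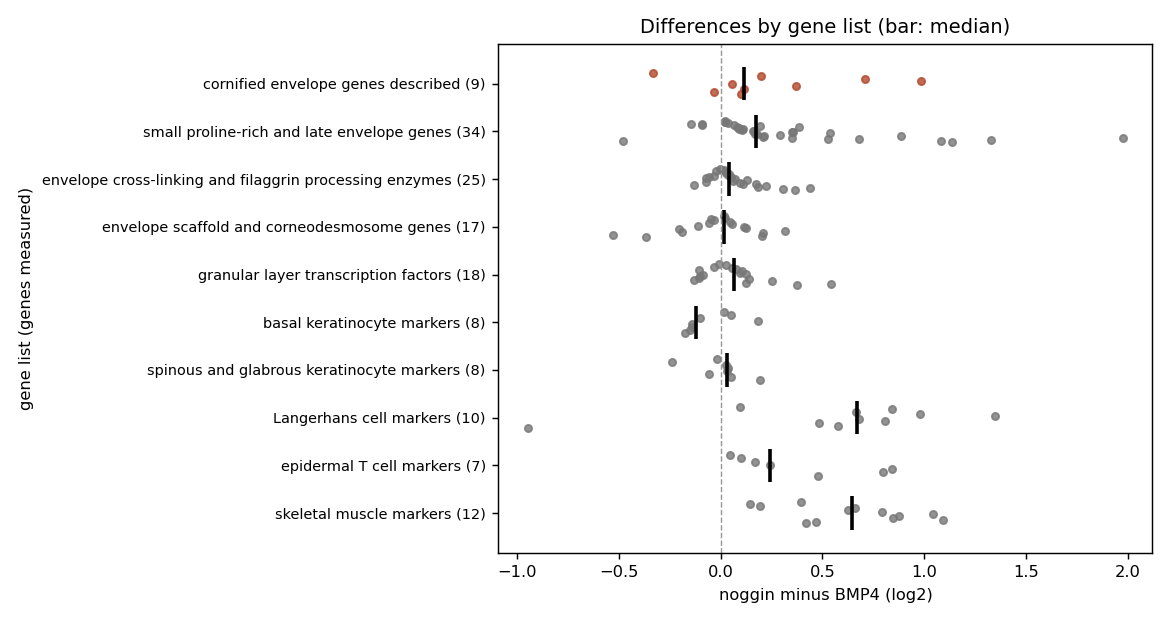
Differences of group means, noggin minus BMP4 on the log2 scale, by gene list, with the number of measured genes beside each name. Points are genes and bars are list medians. The envelope lists centre a little above 0, the basal keratinocyte markers at -0.12, and Langerhans cell and skeletal muscle markers at 0.67 and 0.64.

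Markers of keratinocytes were present on every array. Krt14, a keratin of basal cells, had log2 values of 12.25 and 12.25 in noggin, against 12.42 and 12.36 in BMP4, and Krt10, a keratin of spinous cells, had 13.33 and 13.36 in noggin, against 13.27 and 13.32 in BMP4. The differences were -0.14 for Krt14 and 0.05 for Krt10. Basal markers were lower by their means in noggin for 5 of 8 genes, with 4 of these wholly below BMP4, against 17.9% of all named genes. Spinous and glabrous markers were higher for 5 of 8, at a median of 0.03. Without noggin replicate 2 they were higher for 8 of 8, at a median of 0.05, and without noggin replicate 1 the median was 0.0099. The summed linear signal of the spinous and glabrous list was 51490 to 52479 in noggin and 50432 to 50873 in BMP4.

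Markers of other cell types also differed between arrays. BMP4 replicate 1, the lowest array for 6 of the 9 genes, gave the lowest summed signal of the Langerhans cell, T cell, muscle, fibroblast, endothelial, melanocyte and sebaceous gland lists. It was not the lowest for sweat gland or Merkel cell markers. These were higher in noggin for 4 of 9 and 3 of 7, each at a median of -0.0082, and Merkel cell markers for 7 of 7 without noggin replicate 2. Endothelial markers were higher for 4 of 6, at a median of 0.14, and melanocyte markers for 5 of 7, at 0.06. For Langerhans cell markers the noggin mean exceeded that of BMP4 in 9 of 10 genes, and the summed linear signal was 3231 to 3471 in noggin and 1591 to 2801 in BMP4. The exception, H2-Eb1, had the smallest p of the list (limma, unadjusted p = 0.00042, adjusted p = 0.601). Its log2 values were 6.37 and 6.43 in noggin, against 7.31 and 7.38 in BMP4. H2-Aa and H2-Ab1, also MHC class II genes, had differences of 0.81 and 0.67. Epidermal T cell markers were higher for 7 of 7, with sums of 647 to 911 in noggin and 448 to 594 in BMP4. Skeletal muscle markers were higher for 12 of 12, with sums of 4434 to 8606 in noggin and 2428 to 5592 in BMP4. Dermal fibroblast markers were higher for 4 of 8, with sums of 5886 to 6013 in noggin and 4561 to 6792 in BMP4, and that split rested on the BMP4 arrays, with 0 of 8 higher without BMP4 replicate 1 and 8 of 8 without BMP4 replicate 2. Sebaceous gland markers were higher for 9 of 11, with sums of 4074 to 4565 in noggin and 2979 to 3563 in BMP4. Their median difference was 0.18, and ranged from 0.04 without noggin replicate 1 to 0.36 without BMP4 replicate 2. Of this list Scd1 and Dgat2 were the brightest, at log2 values of 9.86 to 10.67. Awat2, Mc5r and Pparg lay at 4.79 to 5.95, under the array medians of 6.04 to 6.06. Whether the strips held sebaceous cells was not tested. An unadjusted limma p below 0.05 was reached by 4 of the 11 sebaceous and 4 of the 17 hair follicle markers, against 854 of the 19938 named genes. It was reached by 2 of 10 Langerhans cell, 2 of 7 T cell, 0 of 12 muscle and 0 of 8 fibroblast markers. Hair follicle markers were lower by their means for 17 of 17, with sums of 1465 to 1702 in noggin and 2795 to 6551 in BMP4. Their median difference of -0.32 was -0.15, with 15 of 17 lower, where BMP4 replicate 1 was left out. The noggin arrays were wholly below for 10 of the 17, against 17.9% of named genes, and overlapped for 7. Krt84 differed most, by -4.75 (-3.50 without BMP4 replicate 1), at 5.47 and 5.71 in noggin, against 11.60 and 9.09 in BMP4. S100a3 differed by -1.62, and the smallest difference was -0.03. Whether the strips held follicle cells was not tested. RMA gives no value of 0, so no marker was at 0. Their part in the envelope gene values was not tested. The Langerhans median difference was 0.67 with all arrays, 0.30 without BMP4 replicate 1 and 1.10 without BMP4 replicate 2. That of the muscle markers was 0.64 with all arrays and ranged from 0.13 without BMP4 replicate 1 to 1.20 without BMP4 replicate 2.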

How the data were processed

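Gene expression was measured by Affymetrix arrays in 4 pools of laser-captured epidermis, after NuGEN pico amplification and biotin labelling, per the labels' protocols. The authors deposited log2 intensities per probe set, made with Affymetrix Expression Console and RMA, per the submitters' processing notes, whose versions and settings are not given in the sources used here. RMA makes the arrays' distributions nearly equal, which hides any overall shift. The number of arrays limits the precision.

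The platform annotation gave 21789 probe sets 1 symbol, 1621 several and 12146 none, and Entrez identifiers tied 21698 of the first to the gene table of GRCm38.p6. The brightest probe set stood for its gene. R 4.3.3 with limma 3.58.1 fitted noggin minus BMP4 over all 35556 probe sets (lmFit, eBayes, group only, two-sided, 2 residual and 2.08 prior degrees of freedom), with Benjamini-Hochberg adjustment, and errors are SDs of 2 arrays. The code was tested on simulated data. Most context genes named are those of smallest p, at most 3 a list. Sprr2d, Dgat2, Awat2, Mc5r and Pparg were chosen after their values were seen. The members and lists were chosen with earlier results of these data known. The pools hold different animals, so p-values measure the spread between pools. Alternatives covered the prior, a filter on dim probe sets, scaling, the probe sets of a gene, a replicate block and leaving out arrays, which for the lists and single context genes was chosen after seeing the data. Permutations used scipy 1.17.1, and figures matplotlib 3.10.9.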

Additional observations from a re-analysis of the deposited data

How the results depend on the processing

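Limma called 0 of the 9 envelope genes and 0 probe sets under every alternative run: the replicate block, a trend or robust prior, leaving out probe sets under a mean log2 value of 6, cyclic loess, median centring, a repeated quantile normalization, averaging the probe sets of each gene (19938 genes tested) and leaving out each array. The smallest adjusted p of the 9 was never below 0.676. The median difference of the 9 was 0.11 and ranged from 0.088 to 0.14. Of the 9 differences, 8 kept their sign throughout, while that of Ivl lay between -0.18 and 0.11 over the analyses without 1 array, and was positive, at 0.09 and 0.11, where noggin replicate 1 or BMP4 replicate 2 was left out. The cause was not tested. The replicate number as a block left the differences as they were, with 0 called and a smallest adjusted p of 0.948 for the 9 genes (1736 probe sets at an unadjusted p below 0.05). No label says that a number marks a shared litter or batch, and deviations of same-numbered arrays correlated at -0.12 over 35556 probe sets. The crossed replicate block, chosen after seeing the data, called 0 probe sets. The low count of arrays limits every difference, and detection above background is unknown.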
